A study of Mus musculus with 13 samples.

Results

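In mouse embryonic fibroblasts (MEFs), 6486 SMAD3 peaks at promoters were present both with and without 3 days of reprogramming factor induction and were not on the list of changed sites. These kept promoter peaks are the peaks called on the merged SMAD3 libraries of cells given doxycycline (Dox+) that overlapped a peak of the merged libraries without doxycycline (Dox-) by at least 1 bp, overlapped no site that the authors listed as differing between Dox+ and Dox-, and had their center within 1000 bp of a transcript start of the GENCODE vM21 annotation of mm10. They made up 51.6% of the 12576 merged Dox+ peaks and 71.8% of the 9039 merged Dox+ peaks whose center lay at a promoter. The Dox+ and Dox- SMAD3 values chose the peaks, so those values are given below as a description, without a test.

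The MEFs carried a doxycycline-inducible cassette of c-Myc, Klf4, Oct4 and Sox2 (MKOS) with mOrange in the Sp3 locus, the doxycycline-dependent activator rtTA under the CAG promoter, and a GFP reporter in one Nanog allele, on a mixed background of the 129 and CD1 strains, and all cells of the ChIP experiments were transgenic. All 13 samples, controls included, had been infected with a retrovirus expressing constitutively active Smad3 (Smad3CA, with aspartic acids in place of serines at the C terminus) and were collected on day 3. The groups were SMAD3 ChIP Dox+ (doxycycline at 1 µg/ml, 3 replicates), SMAD3 ChIP Dox- (no doxycycline, 3 replicates), OCT4 ChIP Dox+ (3 replicates), input Dox+ (2 replicates) and input Dox- (2 replicates). No group without Smad3CA was analysed here, and the peaks therefore describe cells that had both their own SMAD3 and the introduced active form. The labels do not say whether replicates came from separate cultures.

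SMAD3 is a signal transducer of the TGF-β and activin pathway. Ligands bind a pair of receptor kinases, which phosphorylate SMAD2 and SMAD3, and these enter the nucleus with SMAD4 and act there with other transcription factors, since SMAD3 itself binds DNA weakly. The inhibitory SMAD6 and SMAD7 and the co-repressors SKI and SKIL restrain signaling of the TGF-β family, and the genes of SMAD7 and SKIL are themselves classic targets of TGF-β. Most promoters of broadly used genes lie in CpG islands, stretches rich in G, C and the dinucleotide CG that are usually unmethylated and open.

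The DNA of the kept promoter peaks is shown for 7 of them, chosen to cover the TGF-β pathway and the more general promoters, each as up to 200 bases near the peak center without annotated exons. All are read from the plus strand of GRCm38.p6 (mm10), and the capitals mark each match, on either strand, to one of the consensus strings that were searched. The first 3 belong to Skil, the co-repressor of SMAD proteins, to Tgfbr1, the type I TGF-β receptor, and to Smad5, a SMAD of the BMP branch.
Skil, chr3:31094491-31094690: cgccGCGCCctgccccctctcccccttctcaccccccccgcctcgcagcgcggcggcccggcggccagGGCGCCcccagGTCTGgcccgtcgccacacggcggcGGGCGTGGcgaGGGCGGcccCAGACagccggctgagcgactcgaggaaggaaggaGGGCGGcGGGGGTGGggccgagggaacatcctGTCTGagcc
Tgfbr1, chr4:47353022-47353221: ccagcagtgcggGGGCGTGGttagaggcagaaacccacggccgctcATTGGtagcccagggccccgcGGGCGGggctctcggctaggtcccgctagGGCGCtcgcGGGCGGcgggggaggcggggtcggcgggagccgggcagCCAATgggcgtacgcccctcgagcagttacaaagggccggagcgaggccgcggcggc
Smad5, chr13:56702810-56703009: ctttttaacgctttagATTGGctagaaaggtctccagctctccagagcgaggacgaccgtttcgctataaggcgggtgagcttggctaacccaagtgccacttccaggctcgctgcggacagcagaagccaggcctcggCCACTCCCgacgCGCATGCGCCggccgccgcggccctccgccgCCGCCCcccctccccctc
The Skil stretch lay upstream of the transcript start, from position -567 to -368, and held 3 copies of CAGAC, the SMAD core, and 3 matches to GGCGC, a GC-rich string also bound by SMAD3. The GGCGC matches include the stretch GGCGCC once on each strand. The Tgfbr1 and Smad5 stretches held 1 GGCGC each, and no CAGAC. The next belongs to Jun, a subunit of AP-1.
Jun, chr4:95052708-95052907: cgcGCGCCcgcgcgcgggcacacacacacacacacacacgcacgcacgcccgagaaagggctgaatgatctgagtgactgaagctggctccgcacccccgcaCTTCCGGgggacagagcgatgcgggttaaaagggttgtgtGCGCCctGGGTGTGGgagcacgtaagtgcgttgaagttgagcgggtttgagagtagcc
The Jun stretch, with 63.5% GC and 20 CG dinucleotides, held an ETS string and 2 copies of GGCGC. The last 3 belong to Prpf19, a splicing factor, Cdk2, a cell cycle kinase, and Eif1, a translation initiation factor whose peak was found in all 6 SMAD3 replicate lists.
Prpf19, chr19:10895116-10895230: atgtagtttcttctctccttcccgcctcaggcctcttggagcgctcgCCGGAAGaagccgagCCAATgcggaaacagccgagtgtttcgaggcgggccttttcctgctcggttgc
Cdk2, chr10:128705032-128705179: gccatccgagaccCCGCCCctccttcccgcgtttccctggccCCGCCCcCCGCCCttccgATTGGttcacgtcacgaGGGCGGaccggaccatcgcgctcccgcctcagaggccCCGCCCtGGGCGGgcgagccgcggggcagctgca
Eif1, chr11:100319685-100319884: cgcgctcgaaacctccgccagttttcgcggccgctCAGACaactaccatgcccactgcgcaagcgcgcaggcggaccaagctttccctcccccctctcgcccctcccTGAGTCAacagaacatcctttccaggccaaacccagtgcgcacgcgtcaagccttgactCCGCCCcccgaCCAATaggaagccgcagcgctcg
The Cdk2 stretch of 148 bases held 6 copies of GGGCGG, the SP string, and the Prpf19 stretch held an ETS string and, just after it, CCAAT, the NFY string.

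Before the peaks are described, 2 properties of the lists have to be given. First, the replicate lists differed in length. In Dox+ there were 420 peaks in replicate 1, 23981 in replicate 2 and 10374 in replicate 3, and in Dox- 1656, 18588 and 4038, so replicate 2 was the longest in both groups and replicate 1 the shortest. The lists give no read totals, and the depth behind each is not known here.

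Second, the fold over input and the −log10 q-value that the SMAD3 broad lists give for a peak did not follow the region. Over the 6486 kept promoter peaks, the merged Dox+ fold and the merged Dox- fold had a Spearman rho of 0.0375, and merged and replicate folds of the same region correlated between -0.05 and 0.10. In the first 20 peaks of each chromosome the merged Dox+ fold followed replicate 3 more closely, with a rho of 0.364 (n = 284), than in all later peaks, where it was 0.0953 (n = 8483). For replicate 2 the same values were 0.235 (n = 396) and 0.0507 (n = 11960). Peak widths did follow the region, with a rho of 0.525 between merged Dox+ and Dox- widths and of 0.490 to 0.707 between the merged lists and replicates 2 and 3. At the 630 kept promoter peaks with a site in the authors' OCT4 against SMAD3 table, the SMAD3 log2 concentration followed the merged Dox+ width (rho 0.539) and not the merged Dox+ fold (rho 0.00712). The folds of the OCT4 narrow peaks followed replicate 2 of that group, with a rho of 0.678 (n = 1002). These correlations run across regions of the same libraries, which are not replicates. The kept promoter peaks are therefore described by the lists that held them, their width, position, genes and sequence, and SMAD3 folds are given only as deposited.

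Of the merged Dox+ peaks, 7667 (61.0%) overlapped a merged Dox- peak, and 355 of these touched a listed site. Among all 13217 regions in at least 2 of the 6 SMAD3 replicate lists, 15.7% were listed as changed in either direction, and the kept promoter peaks hold none of these by definition. The 7312 peaks left were mostly promoter peaks, 6486 (88.7%), against 826 kept distal peaks. The kept promoter peaks overlapped 6442 different Dox- peaks. For comparison, 483 promoter sites were listed as higher and 381 as lower after dox. The center limit separated few peaks: the last members inside it were at 992 bp (5830454E08Rik), 993 bp (G730013B05Rik) and 998 bp (Plpp3), and the nearest outside it were at 1005 bp (Gm26664), 1009 bp (Usp49) and 1011 bp (Trim47).

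Nearly all kept promoter peaks were found in the long lists and few in the short ones. Dox+ replicate 1 overlapped 302 of them (4.66%), replicate 2 6460 (99.6%) and replicate 3 5566 (85.8%). In Dox-, replicate 1 overlapped 1367 (21.1%), replicate 2 6300 (97.1%) and replicate 3 2485 (38.3%). Read the other way, the short lists lay mostly on these peaks: 72.6% of the 420 peaks of Dox+ replicate 1 and 82.7% of the 1656 peaks of Dox- replicate 1 fell on a kept promoter peak, against 26.8% and 33.8% of the longest lists. At the kept distal peaks the overlap was lower in every list, at 1.69%, 98.8% and 70.2% in Dox+ and 9.08%, 95.8% and 27.6% in Dox-.

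**Figure D1:**
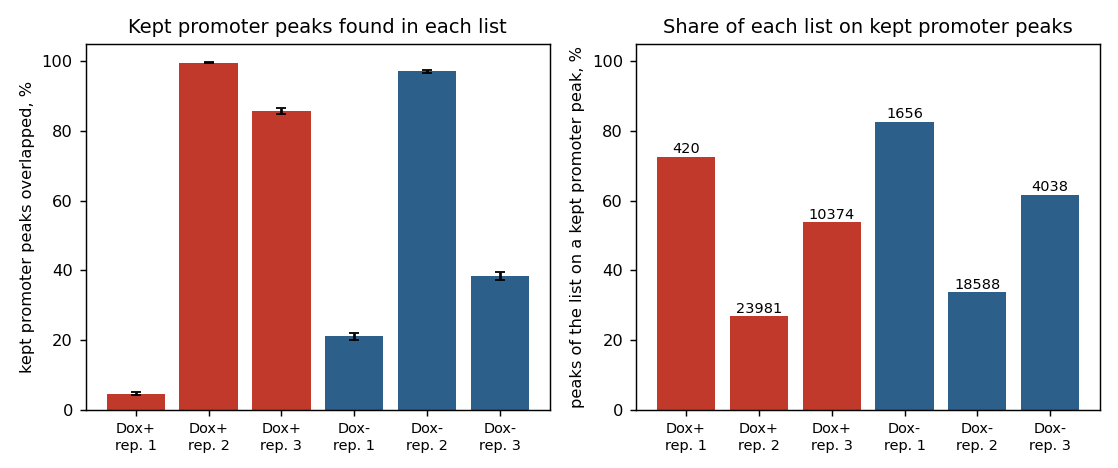
Left, share of the 6486 kept promoter peaks (y axis, %) overlapped by each SMAD3 replicate list, Dox+ in red and Dox- in blue, with exact 95% intervals. Right, share of the peaks of each list (y axis, %) that fell on a kept promoter peak, with the number of peaks in the list above each bar: the shortest lists, of 420 and 1656 peaks, lay 72.6% and 82.7% on kept promoter peaks.

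At least 2 Dox+ and at least 2 Dox- lists held 2732 kept promoter peaks (42.1%, exact 95% interval 40.9 to 43.3%, counting error only), and at least 1 list of each group held 6354 (98.0%). All 6 lists held 120 (1.85%), and 3 peaks were in none. Replicate 2 of both groups, and no other list, held 645 (9.94%). The share with 2 lists in each group rested on the long lists, since it was 3.47% without Dox+ replicate 2, 3.48% without Dox+ replicate 3, 12.7% without Dox- replicate 2 and 20.0% without Dox- replicate 3. Peaks in more lists were wider: the median width was 353.5 bp for peaks in 2 lists, 534 bp in 3, 653 bp in 4, 808 bp in 5 and 960 bp in 6.

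The 120 peaks held by all 6 lists included Junb, Id3, Brd2, Hexim1, Tshz1, Gtf2a1 and the noncoding RNA Malat1, which, with Sp3, were the widest of them and were picked by that after their values were seen. JUNB is an AP-1 subunit, ID3 an inhibitor of basic helix-loop-helix factors, and both genes respond to the TGF-β family. The Junb peak was 240, 6693 and 2615 bp wide in Dox+ replicates 1, 2 and 3 and 291, 6364 and 1491 bp in Dox-. The Id3 peak was 294, 6289 and 1658 bp wide in Dox+ and 1160, 5162 and 983 bp in Dox-. Brd2, an acetyl-histone reader, had 416, 5120 and 4274 bp in Dox+ and 3213, 5180 and 2878 bp in Dox-, and Hexim1, an inhibitor of the elongation kinase P-TEFb, had 160, 6909 and 1680 bp against 329, 6015 and 1550 bp. Replicate 2 was the widest at each of these 4 in both groups, replicate 1 the narrowest except at Id3 and Brd2 in Dox-, and the Dox+ and Dox- widths overlapped.

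The kept promoter peaks had a median width of 575 bp in the merged Dox+ list, from 171 to 5912 bp, and of 595 bp for their Dox- counterparts, from 186 to 8680 bp. The Dox+ peak was the wider one at 48.2% of them. The centers of a Dox+ peak and its Dox- counterpart lay a median of 95 bp apart. As deposited, the median fold over input was 2.31 in Dox+ (1.11 to 15.9) and 2.33 in Dox- (1.08 to 17.4), and the 2 folds of a peak were within 1.5 times of each other at 78.0%. At least 1 narrower sub-peak lay inside 91.6% of the Dox+ peaks and 87.7% of the Dox- ones, and 2 or more inside 15.9% and 15.3%.

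**Figure D2:**
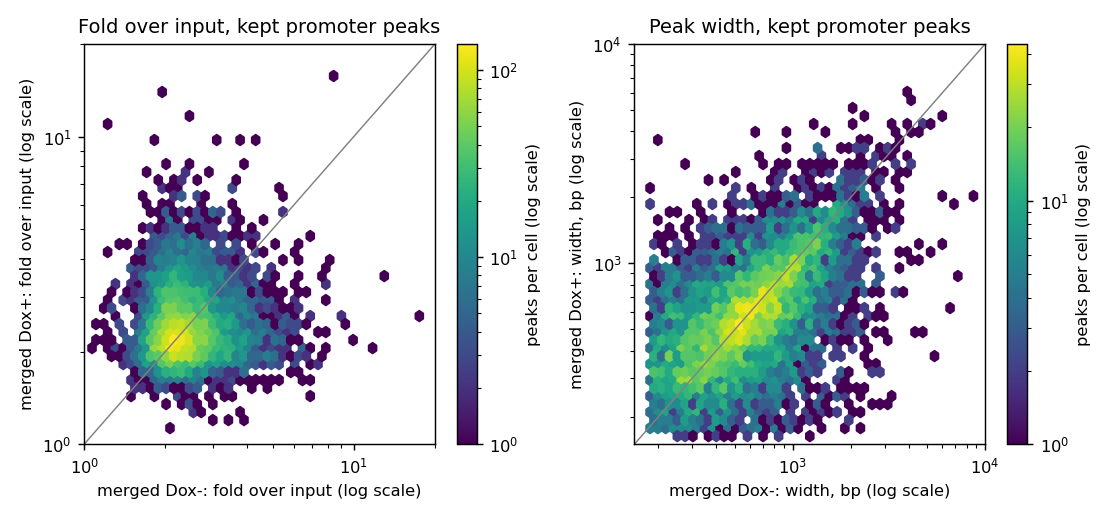
Each hexagon counts kept promoter peaks (color, log scale). Left, fold over input as deposited in the merged Dox- (x axis, log scale) and merged Dox+ list (y axis, log scale), with no relation between the 2 (rho 0.0375). Right, peak width in bp on the same axes (log scale), which rose together (rho 0.525), and the gray lines mark equal values.

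The peaks with the highest folds were picked as extremes, so lower values for them in other lists follow in part from that choice. The 8 named by the highest merged Dox+ fold among peaks with 2 lists in each group were Acly, Nab1, Atp5g3, Pcgf2, Foxo1, Nudt8, Plcb3 and Cep350. Acly, which makes cytosolic acetyl-CoA, had a merged Dox+ fold of 12.1, while its folds were 2.33 and 4.88 in Dox+ replicates 2 and 3, 2.45 in merged Dox- and 3.48 and 2.28 in Dox- replicates 2 and 3. Nab1, a co-repressor of EGR factors, had 10.0051 in merged Dox+, 8.72 and 2.89 in Dox+ replicates 2 and 3, and 3.15 in merged Dox-. Foxo1, a forkhead factor held back by insulin signaling, had 7.65 in merged Dox+, 4.08, 10.2 and 2.28 in its replicates, and 2.36 in merged Dox-. By width these peaks were not large, at 415 bp for Acly, 969 bp for Nab1 and 585 bp for Foxo1 in merged Dox+. Of the 8 named by the highest mean fold among peaks in all 6 lists (Eif1, Ldb1, Rnd3, Wnt9a, Ighmbp2, Zfp518b, Usp15 and Slc25a15), Eif1 had 3.94 in merged Dox+ and 7.92 in merged Dox-, with replicate folds of 1.90, 1.87 and 2.64 in Dox+ and of at most 2.77 in Dox-. No replicate of Eif1 reached the merged Dox- value.

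The kept promoter peaks sat on the transcript start. The median distance from peak center to the nearest start was 64 bp, 42.4% lay within 50 bp, 63.6% within 100 bp and 96.5% within 500 bp, and the peak spanned a start at 94.2%. They lay on either side about equally, with the center downstream at 50.4% (49.2 to 51.6%) and upstream at 48.8%. The centers of the Dox- counterparts were downstream more often, at 56.7%. Starts on both strands lay within 1000 bp of the center at 26.1% of the peaks.

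The peaks marked 6950 of 21938 protein-coding genes (31.7%), counting a gene when the center of a kept promoter peak lay within 1000 bp of one of its starts. Of these genes, 238 had more than 1 such peak, 40 also had a site listed as higher after dox, and 30 a site listed as lower. Among noncoding genes, 384 of 2959 antisense RNAs had such a peak, as did 22.7% of processed transcripts, 3.86% of lincRNAs and 3.12% of snoRNAs. Promoter windows of neighboring genes overlap, so a peak may count for several genes, and 863 peaks did.

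The genes of the TGF-β pathway are given in the order of the pathway, to be read against the 31.7% of all protein-coding genes. Among genes whose first start had CpG-island composition, defined below, the share was 54.1%. Of 11 ligand genes, 5 (45.5%, exact 95% interval 16.7 to 76.6%) had a kept promoter peak, namely Tgfb1, Tgfb2, Tgfb3, Gdf11 and Inhbb. The Tgfb1 peak was narrow, 349 bp in merged Dox+, and was held by 1 Dox+ list (1411 bp in replicate 2) and 2 Dox- lists (1288 and 213 bp in replicates 2 and 3). Of 14 receptor and co-receptor genes, 8 (57.1%, 28.9 to 82.3%) had a peak, namely Tgfbr1, Tgfbr2, Acvr1, Acvr1b, Acvr2a, Acvr2b, Bmpr1a and Bmpr2. The intervals of the ligands and of the receptors include the share of all protein-coding genes and that of genes with a CpG-island start. Tgfbr3, the co-receptor betaglycan, had a site listed as lower after dox instead, and Acvr1c, Acvrl1, Bmpr1b, Eng and Tdgf1 had no merged SMAD3 peak at their starts. The Tgfbr1 peak whose sequence is given above was 1004 and 615 bp wide in Dox+ replicates 2 and 3 and 340, 2055 and 1025 bp in Dox- replicates 1, 2 and 3, and Dox+ replicate 1 did not hold it. The Tgfbr2 peak, at the type II receptor that starts signaling, had 1404 and 1048 bp in Dox+ replicates 2 and 3 and 257, 1248 and 591 bp in Dox-.

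Among the signal transducers, 7 of 8 SMAD genes (87.5%, 47.3 to 99.7%) had a kept promoter peak, with Smad9 as the exception. That interval includes the 54.1% of genes with a CpG-island start. The receptor-activated Smad2, Smad3, Smad1 and Smad5 were each found in 2 Dox+ lists. In Dox-, Smad2 (1340 bp) and Smad3 were found in replicate 2 alone, Smad1 in replicates 2 and 3, and Smad5 in all 3. The common partner Smad4 was found in all 3 Dox+ lists, with widths of 481, 1407 and 887 bp, and in 2 Dox- lists, with 1017 and 884 bp. The inhibitory Smad7 was found in all 6 lists, with 258, 1408 and 848 bp in Dox+ and 794, 1579 and 556 bp in Dox-. Smad6, the other inhibitory SMAD, was in 3 Dox+ lists (319, 2288 and 1349 bp) and 2 Dox- lists (765 and 3088 bp). At Smad4, Smad6 and Smad7 the Dox+ and Dox- widths overlapped, and at Smad3 the single Dox- width, 1824 bp in replicate 2, was above both Dox+ widths, 966 and 897 bp in replicates 2 and 3.

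Of 28 inhibitors and modulators, 20 (71.4%, 51.3 to 86.8%) had a kept promoter peak, and 14 of these were in 2 lists of each group. The interval of their share includes the 54.1% of genes with a CpG-island start. Skil, Ppm1a, a phosphatase of SMAD2 and SMAD3, and Usp15, a deubiquitinase of the receptor complex, were held by all 6 lists. The Skil peak was 397, 1995 and 2365 bp wide in Dox+ and 620, 1947 and 2214 bp in Dox-, so the groups overlapped and replicate 1 was narrowest in both. The Ppm1a peak was 153, 2044 and 1542 bp wide in Dox+ and 1006, 1358 and 1160 bp in Dox-. The ubiquitin ligases Smurf1, Smurf2, Nedd4l, Wwp1 and Wwp2, the SMAD anchors Zfyve9 and Zfyve16, the co-repressors Ski, Tgif1 and Tgif2, Trim33, Bambi, Pmepa1, Usp9x, Fst, Chrd and Ltbp1 made up the rest. Ltbp3 and Fstl3, whose proteins store latent TGF-β and bind activin, had a site listed as lower after dox, and Ltbp1 had both a kept peak and such a site.

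Of 30 SMAD3 target genes of fibroblasts, 22 (73.3%, 54.1 to 87.7%) had a kept promoter peak and 4 a site listed as lower, namely Col1a1, Col1a2, Fn1 and Mmp2, which encode collagen I, fibronectin and a matrix protease. The lower limit of that share lies at the 54.1% of genes with a CpG-island start. The immediate early genes and regulators among the 22 were Jun, Junb, Fos, Id1, Id2, Id3, Snai1, Snai2, Twist1, Zeb2, Cdkn1a and Cdkn2b. Matrix and cytoskeleton genes among them included Ccn1, Ccn2, Thbs1, Timp3, Col3a1, Col5a1, Tagln, Vim and Cdh2. The Vim peak, at the gene of the fibroblast intermediate filament, had 2441 and 3207 bp in Dox+ replicates 2 and 3 and 2253 and 752 bp in Dox- replicates 2 and 3, and the Ccn2 peak had 1723 and 310 bp against 441 and 1969 bp. At Vim both Dox+ widths were above both Dox- widths, and at Ccn2 the groups overlapped. The Vim gap was small in replicate 2 and larger in replicate 3, where the Dox- list was also the shorter (4038 against 10374 peaks). The part of list length in that gap was not tested.

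Genes used in every cell were marked more often than the 31.7% of all protein-coding genes. Among genes whose first start had CpG-island composition the share was 54.1%, as given above. How many genes of these lists, or of the TGF-β and SMAD lists, have such a start was not measured. The MLL and SWI/SNF complexes with p300 and CBP, which write or read active chromatin or move nucleosomes, had a kept promoter peak at 31 of 34 genes (91.2%, 76.3 to 98.1%), with Men1, Hcfc1 and Smarcb1 as the exceptions and Setd1b, Arid1a and Arid1b in all 6 lists. The Ep300 peak was 1925 and 1206 bp wide in Dox+ replicates 2 and 3 and 474, 1794 and 674 bp in Dox-. Splicing factors followed with 27 of 37 (73.0%), cytosolic ribosomal proteins with 57 of 79 (72.2%), translation initiation factors with 23 of 36 (63.9%), RNA polymerase II, TFIID and Mediator with 34 of 54 (63.0%), respiratory chain complex I with 21 of 36 (58.3%) and proteasome subunits with 16 of 31 (51.6%). The intervals of initiation factors (46.2 to 79.2%), RNA polymerase II, TFIID and Mediator (48.7 to 75.7%), complex I (40.8 to 74.5%) and the proteasome (33.1 to 69.8%) include 54.1%. Of the 16 proteasome peaks, 0 were in 2 lists of each group, and of the 21 complex I peaks 6. Among the 57 ribosomal protein peaks 28 were, and among all kept promoter peaks 42.1%. Cell cycle and replication genes were near the background with 16 of 41 (39.0%, 24.2 to 55.5%).

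Genes of other cell types were mostly unmarked. Pluripotency genes were at the background, with 9 of 28 (32.1%), namely Sox2, Klf2, Klf4, Klf5, Tbx3, Tet1, Tet2, Jarid2 and Myc, several of which fibroblasts also use. Lin28b had a site listed as higher after dox and Dppa2 one listed as lower. Of 20 epithelial genes 2 had a kept peak, Cldn7 and Tjp1, and Cldn3 had a site listed as higher. Of 28 neuronal genes 0 had one (exact upper limit 12.3%). The 1 of 28 blood cell genes was Cd14, and the 2 of 27 liver and gut genes, Foxa3 and Apoh, shared their peaks with the nearer starts of Sympk and Prkca.

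**Figure D3:**
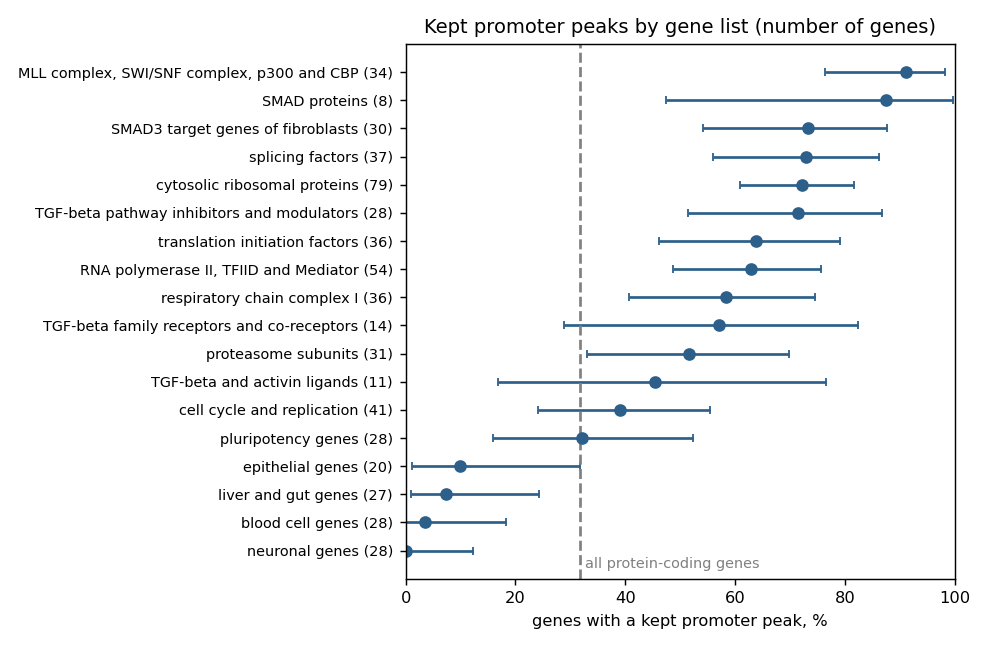
Share of the genes in each list (x axis, %) with a kept promoter peak, with exact 95% intervals and the number of genes in parentheses, and the dashed line marks all protein-coding genes (31.7%). Chromatin regulators were at 91.2%, SMAD proteins at 87.5% and neuronal genes at 0. The share of genes with a CpG-island start, 54.1%, is not drawn.

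Some of these promoters belong to genes that the cells also carried as introduced copies. The Sox2 peak lay entirely in exons (100%), the Myc peak to 54.9%, the Smad3 peak to 43.5%, the Klf4 peak to 14.8% and the Sp3 peak, at the locus that held the cassette, to 27.8%. In the exonic parts of the Sox2, Myc, Smad3 and Klf4 peaks, SMAD3 binding and DNA of the introduced copies cannot be told apart in these lists. The inputs used for peak calling came from cells with the same copies, and how far they offset them was not tested. Sp3 itself was not introduced as a copy. The Sp3 peak was 153, 3067 and 2581 bp wide in Dox+ and 862, 4079 and 564 bp in Dox-.

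The X chromosome held few kept promoter peaks. Of its 948 protein-coding genes, 68 (7.17%) had one, against 33.1% of autosomal genes. Among genes with a CpG-island start the shares were 47 of 283 (16.6%) on the X and 55.1% on the autosomes, a difference of -38.5 percentage points (Newcombe 95% interval -42.5 to -33.6). Any merged SMAD3 peak was found at 50.9% of the X-linked and 76.4% of the autosomal CpG-island genes. The 69 X-linked peaks were overlapped by the long lists like the others, 69 by Dox+ replicate 2 and 68 by Dox- replicate 2, but Dox- replicate 3 overlapped 10.1% of them (4.18 to 19.8%) against 38.6% on the autosomes. Usp9x, Kdm6a and Rpl10 were among them.

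CpG-island composition was the rule at the kept promoter peaks. In a window of 500 bp around the center, at least 50% GC and an observed over expected CG ratio of at least 0.6 were met by 87.0% (86.2 to 87.8%) of them, with a median GC content of 65.8%. The share was 21.4% at kept distal peaks, 61.1% at promoter sites listed as higher after dox, 51.7% at those listed as lower and 47.6% at the first starts of all protein-coding genes. Of the genes with a CpG-island start 54.1% had a kept promoter peak, and of the others 11.4%.

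Short consensus strings were searched on both strands within 100 bp of each center, and matches of the same or of different strings could overlap. The strings were CCGGAAG (ETS), GGGCGG (SP), GGGNGTGG (KLF), CCAAT (NFY), CGCATGCG (NRF1), AAGATGGC (YY1), TGACGTCA (CRE), TCTCGCGA, CACGTG (E-box), TGACTCA (AP-1), GGAATG (TEAD), TGTGGTTT (RUNX), ATGCAAAT (octamer, bound by OCT4), TATAAA (the TATA box) and, for SMAD proteins, CAGAC, GTCTAGAC and GGCGC. A match describes the sequence and does not show a bound factor. The kept promoter peaks were rich in the strings of CpG islands: GGCGC was found at 68.0%, SP at 60.1% and ETS at 14.2%, against 26.4%, 20.9% and 4.12% at kept distal peaks and 41.8%, 39.9% and 9.58% at the first starts of all protein-coding genes. The SMAD core CAGAC was less frequent at the kept promoter peaks than at kept distal peaks, with 31.4% against 39.5%, and stood at 37.2% of all first starts. The palindrome GTCTAGAC was at 0.139% against 0.969%. AP-1 (1.48% against 8.23%), TEAD (6.03% against 16.6%) and RUNX (0.432% against 2.54%), the factors of fibroblast enhancers, were rarer than at kept distal peaks as well. Of the kept promoter peaks, 21.7% had none of the ETS, NRF1, NFY, SP, KLF, YY1, CRE and TCTCGCGA strings.

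The strings were also compared among starts that met the CpG-island limits. Among first starts with CpG-island composition, those with a kept promoter peak (n = 5644) had the ETS string in 20.2% and those without a merged SMAD3 peak (n = 2529) in 9.02%, a difference of 11.1 percentage points (9.58 to 12.6). The genes of the second set had no merged SMAD3 peak and no listed site centered within 1000 bp of a start. The replicate lists were not searched for them. YY1 was at 5.94% against 2.096%, NRF1 at 4.11% against 2.41%, TCTCGCGA at 2.99% against 1.38% and SP at 69.3% against 65.05%, and the interval of each difference lay above 0. The SMAD strings did not differ beyond their intervals: CAGAC was at 30.4% against 31.6% (difference -1.19, -3.38 to 0.97) and GGCGC at 73.8% against 72.8% (difference 1.00, -1.06 to 3.10). KLF, with 16.0% against 16.1%, and the octamer, with 0.549% against 0.712%, did not either. The composition of these starts still differed, with a median GC of 65.4% with a kept promoter peak and 64.2% without a merged SMAD3 peak, and a median CG ratio of 0.862 against 0.775. The ETS, NRF1, TCTCGCGA and SP strings contain CG, and the part of the CG ratio in these differences was not tested. The ETS share did not rise with the number of SMAD3 lists, being 12.2% in peaks of up to 2 lists, 17.5% in 3, 13.01% in 4 and 8.50% in 5 or 6. CpG-island composition rose over the same classes from 81.5% to 90.3%. The intervals cover counting error over regions, which are not replicates.

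**Figure D4:**
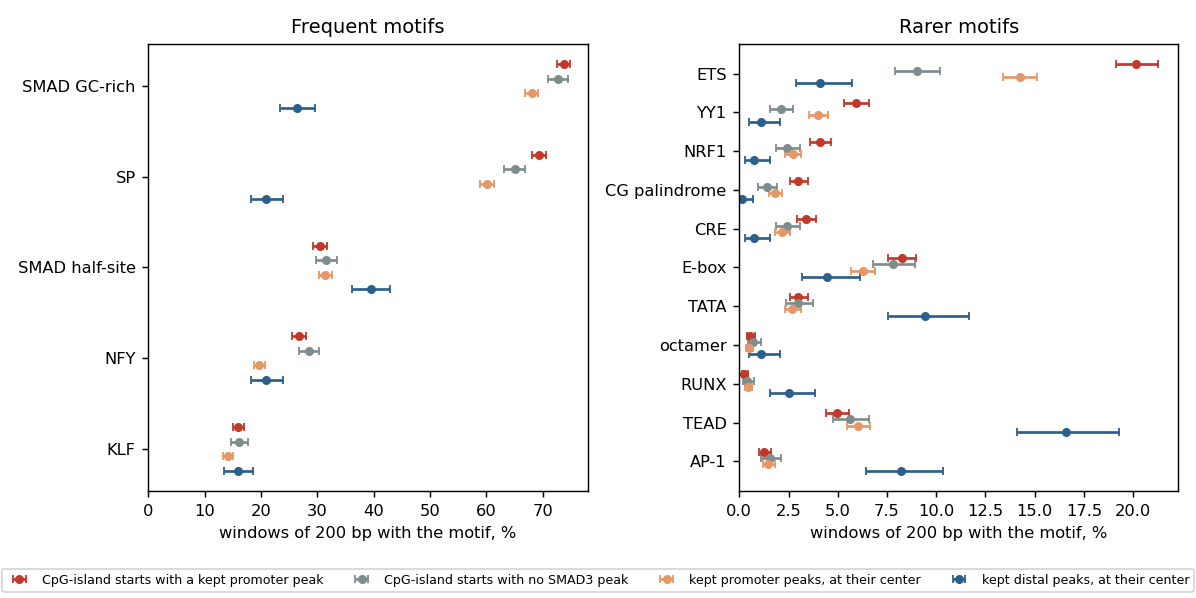
Share of 200 bp windows (x axis, %) with each consensus string, with exact 95% intervals, for frequent (left) and rarer strings (right). CpG-island starts with a kept promoter peak (red) had more ETS (20.2% against 9.02%) and YY1 strings than those without a merged SMAD3 peak (gray), while kept distal peaks (blue) had more AP-1 and TEAD strings than kept promoter peaks (orange). SMAD half-site is CAGAC, SMAD GC-rich is GGCGC and CG palindrome is TCTCGCGA.

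OCT4 was found at few kept promoter peaks. A merged OCT4 peak overlapped 24 of 6486 (0.370%, 0.237 to 0.5501%), which were 1.19% of the 2022 distinct OCT4 regions. At kept distal peaks the count was 7 of 826 (0.847%), at promoter sites listed as higher after dox 17 of 483 (3.52%) and at those listed as lower 0 of 381 (exact upper limit 0.964%). OCT4 ChIP was not used in choosing the peaks, so this overlap can be compared over the 3 OCT4 replicate lists. They overlapped 0.170%, 0.231% and 0.0463% of kept promoter peaks and 0.363%, 0.605% and 0% of kept distal peaks. The mean difference was -0.174 ± 0.211 percentage points (SD, n = 3), lower at promoters in 2 of 3 lists, with p = 0.5 in the exact two-sided permutation test paired by list, which cannot go below 0.25 with 3 lists. A difference between promoter and distal peaks was therefore not detectable at this number of replicates.

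The 8 of the 24 with the highest OCT4 −log10 q included Etv1, Plekhh1, Sulf2, Jag1, S100a11, Ppargc1b and Ccsap. Only 4 of the 24 were in at least 2 OCT4 replicate lists, among them Plekhh1, Jag1 and Pde4d, and 12 were in none, S100a11 among them. The OCT4 regions at Plekhh1, a gene of a PH domain protein, and at S100a11, a calcium-binding protein gene, are shown with the same strings in capitals, from the plus strand of the same assembly.
Plekhh1, chr12:79028124-79028396: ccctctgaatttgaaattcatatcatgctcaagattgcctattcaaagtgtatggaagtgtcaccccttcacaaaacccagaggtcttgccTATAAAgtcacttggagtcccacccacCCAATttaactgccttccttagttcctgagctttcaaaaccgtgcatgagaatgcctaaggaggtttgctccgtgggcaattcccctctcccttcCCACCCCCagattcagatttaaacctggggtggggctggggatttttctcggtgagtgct
S100a11, chr3:93521348-93521521: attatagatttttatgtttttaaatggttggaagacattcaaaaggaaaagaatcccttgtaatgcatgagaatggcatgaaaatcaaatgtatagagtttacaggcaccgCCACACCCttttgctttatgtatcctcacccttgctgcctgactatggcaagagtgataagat
Both held a KLF string on the reverse strand, Plekhh1 also held CCAAT and TATAAA, and neither held ATGCAAAT. Among the 24 regions 6 (25%, 9.77 to 46.7%) held a KLF string and 1 (4.17%) the octamer, against 14.9% and 7.31% of the 1998 other OCT4 regions. CpG-island composition was met by 10 of the 24 (41.7%, 22.1 to 63.4%) and by 0.651% of the others. The 24 lie on peaks chosen to be at promoters and the others were not so chosen, so this gap follows in part from that choice.

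The SMAD3 signal at these 24 OCT4 regions was measured in the pooled tracks as coverage minus input, on a scale where 1 is the mean coverage of the genome, over the central 200 bp. It was above 0 in all 24 in Dox+ and in 20 of 24 in Dox-. Its median with dox was 13.5 (6.31 to 108), that without dox 6.47 (-1.98 to 107), and the Dox+ signal was the higher one at 22 of the 24. Etv1, an ETS factor gene, had 30.6 in Dox+ and 7.31 in Dox-, and Plekhh1 had 9.57 and -1.33. Jag1, a Notch ligand gene, had 18.2 and 12.9, and Ccsap had 12.7 and 13.05. The Rnu3b1 region, at a small nucleolar RNA gene, had the highest SMAD3 signal of the 24, with 108 and 107, and an OCT4 signal of 18.8. At the 2059 OCT4 entries elsewhere, SMAD3 averaged 7.98 with dox and 0.106 without (medians 7.15 and 0.0102). Measured as sets of their own, the 7 entries on kept distal peaks averaged 14.5 and 8.00. The 18 on promoter sites listed as higher after dox averaged 19.9 and 2.78. The 24 regions lie on peaks chosen for SMAD3 in both groups of the same libraries, so their signal without dox follows in part from that choice. The OCT4 signal was similar at the 24 regions and at the 2059 entries, with means of 22.8 and 23.2. The tracks pool the replicates, so no replicate error can be given, and OCT4 was not measured in Dox-.

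**Figure D5:**
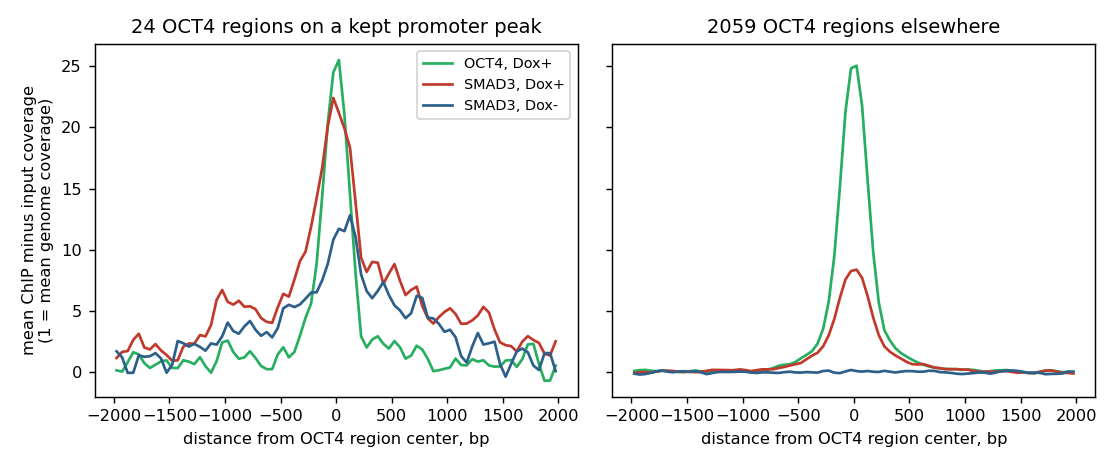
Mean coverage of ChIP minus input (y axis, 1 is the mean genome coverage) around the center of OCT4 regions (x axis, bp) for OCT4 in Dox+ (green), SMAD3 in Dox+ (red) and SMAD3 in Dox- (blue). The 24 regions on the left lie on kept promoter peaks, which were chosen for SMAD3 in both conditions, and SMAD3 had signal in both. The left means include Rnu3b1, at 107 in Dox-. At the 2059 elsewhere (right) the Dox- mean over the central 200 bp was 0.106.

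The authors' table of OCT4 against SMAD3 binding in Dox+ lists sites that differ between the ChIPs. Of the 6486 kept promoter peaks 5573 lay on a region that could enter that comparison, and 556 (9.98%) were listed with SMAD3 higher, against 6.64% of all 9903 such regions. With OCT4 higher 74 (1.33%) were listed, against 13.6% of all. The kept promoter peaks were chosen for a SMAD3 peak in these same Dox+ libraries, so both gaps follow in part from that choice. Kept distal peaks were chosen by the same SMAD3 values. Their SMAD3-higher share was 9.73%, a difference of 0.25 percentage points (-2.52 to 2.54), and their OCT4-higher share was 2.39%. Of the 74 listed with OCT4 higher 16 had a merged OCT4 peak, and of the 556 with SMAD3 higher 0 did. The median log2 concentration at the 556 was 3.69 for SMAD3 and 1.76 for OCT4. Among the listed kept promoter peaks, the highest SMAD3 log2 concentrations, by protein-coding gene and picked after their values were seen, were at Ppp1r10 (6.58), which encodes a subunit of a nuclear phosphatase complex, and at Jund (6.17), Gtf2a1 (6.15), Polr2a (5.97) and Skil (5.60). The peaks of Jund, Gtf2a1, Polr2a and Skil were in all 6 SMAD3 lists. The table holds group means, and no spread between replicates can be given for these levels.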

How the data were processed

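The authors trimmed reads with Trimmomatic 0.36, aligned them to mm10 with Bowtie2 (2.28 per the submitters' processing notes), removed duplicates with Picard 2.3.0 and called peaks with MACS2 2.1.0 against pooled inputs, on each replicate and on merged replicates, as broad peaks for SMAD3 and narrow peaks for OCT4. The deposited peak lists give each peak a −log10 q-value and its fold over input, a ratio on a linear scale. The deposited signal score is ChIP minus input coverage, made by the authors with deepTools 2.2.3. The deposited DiffBind 1.16.3 tables give log2 concentrations as group means and list only sites past the authors' limits, and their fold, p-value and FDR columns were not used. Gapped-peak files were used for the sub-peaks only.

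Overlap meant at least 1 bp. The regions open to a DiffBind call were rebuilt as regions in at least 2 replicate lists, and all 2080 listed Dox+ against Dox- sites lay in them. Shares were given with exact (Clopper-Pearson) 95% intervals and differences with Newcombe intervals, which cover counting error only. Lists were compared with an exact permutation test. P-values measure the spread between lists only, which may be technical. The replicate lists of OCT4 pair by construction, since both shares come from one list. Python 3.11.15, numpy 2.4.6, pandas 2.3.3, scipy 1.17.1, pysam 0.24.0 and matplotlib 3.10.9 were used. Simulated data served to test the overlap, motif and Newcombe interval steps, and the permutation test was not checked in this way.

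The peaks, the 18 gene lists and the 17 consensus strings were chosen with earlier results of these data known. All listed genes were matched in GENCODE vM21. Named peaks were the 8 with the highest merged Dox+ fold among those in at least 2 lists of each group, the 8 with the highest mean merged fold among those in all 6 lists, the 8 with the highest OCT4 −log10 q, the 3 on each side of the distance limit, and in each gene list up to 4 genes with a peak by merged Dox+ fold, or all of them for the TGF-β, SMAD and pluripotency lists. Other named genes were chosen after their values were seen. A peak was named by the nearest protein-coding start, or by any nearest gene where none was in reach. Some named peaks are not reported here.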

Additional observations from a re-analysis of the deposited data

How the results depend on the processing

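The number of kept promoter peaks stayed between 4627 and 6640 under other distance limits, protein-coding starts only, an overlap of at least 50% of each peak, and counting from the Dox- list, and was 1073 with a −log10 q of at least 2 in both merged lists, where the median fold was 2.90 in Dox+ and 2.98 in Dox-. That column did not follow the region in the broad lists. The share with at least 2 lists in each group ranged from 3.47% to 42.1% when 1 SMAD3 replicate was left out, and was 22.4% for lists covering at least 50% of the peak and 0.139% for replicate peaks with a −log10 q of at least 2. The OCT4 share was 0.0617% for OCT4 peaks in at least 2 OCT4 lists. The OCT4 difference from kept distal peaks stayed below 0 under every alternative run, was -0.174 with p = 0.5 in the exact permutation test without pairing as with it, and ranged from -0.284 to -0.0737 when 1 OCT4 replicate was left out. CpG-island composition was 80.4% with 55% GC and a ratio of 0.65, 84.4% in 200 bp windows, 88.7% at the nearest start, and 89.4% in peaks with at least 2 lists in each group, an alternative chosen after seeing the data. The genes with a kept promoter peak were 30.4% with a limit of 500 bp and 13.8% with at least 2 lists in each group. The center was downstream at 50.4%, at 49.5% by protein-coding starts, so that the larger side changed, and at 56.7% by the Dox- peak.

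The shares of the consensus strings moved with the window. Within 50 bp of the center they were 8.05% for ETS, 1.34% for NRF1, 11.4% for NFY, 38.5% for SP, 6.94% for KLF, 2.19% for YY1, 1.28% for CRE, 1.02% for TCTCGCGA, 2.99% for E-box, 0.833% for AP-1, 16.7% for CAGAC, 0.0617% for GTCTAGAC, 47.5% for GGCGC, 0.262% for octamer, 1.37% for TATA, 2.98% for TEAD and 0.231% for RUNX. Within 250 bp they were 24.8% for ETS, 5.04% for NRF1, 38.7% for NFY, 82.9% for SP, 31.5% for KLF, 8.11% for YY1, 4.09% for CRE, 3.24% for TCTCGCGA, 13.3% for E-box, 4.15% for AP-1, 61.9% for CAGAC, 0.339% for GTCTAGAC, 88% for GGCGC, 1.19% for octamer, 6.58% for TATA, 14.9% for TEAD and 1.14% for RUNX. At the nearest start those that moved beyond their interval were 16.4% for ETS, 3.28% for NRF1, 21.8% for NFY, 66.9% for SP, 15.2% for KLF, 5.67% for YY1, 2.76% for CRE, 7.32% for E-box, 71.1% for GGCGC, 3.15% for TATA and 5.27% for TEAD. Of 87 values under alternatives 24 stayed within the limit set for their result. The limit was the interval for a share and 1.5 times for the count. For the OCT4 difference it was the same sign, and for the median fold the SD of the replicate medians.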
